A study of Homo sapiens with 3 samples.

Results

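The subject here is a set of 10 genes that control passage through G1, the phase of the cell cycle before DNA synthesis: the cyclins CCND2, CCND3, CCNE1 and CCNE2, the kinases CDK4, CDK6 and CDK2, the kinase inhibitors CDKN1B and CDKN2C, and RB1. They were taken by symbol from the table of normalized counts. All 10 were found among its 17329 genes, and all 10 had a mean over the libraries of at least 50, the floor used below. The cells were Jurkat, an established human T-cell leukaemia line. Each of 3 conditions gave 1 polyadenylated RNA library after 48 hours: control in standard medium, oxamate in medium with sodium oxamate at 50 mM, and oxamate+lactate in medium that held L-sodium lactate at 10 mM besides the same dose of oxamate. Oxamate inhibits lactate dehydrogenase, which makes lactate from pyruvate. The series asked how lactylation of histone H3 at lysine 18 bears on transcription, and the RNA values measure neither lactate nor that mark.

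In G1, D-type cyclins bind CDK4 and CDK6, and E-type cyclins bind CDK2. These kinases phosphorylate the retinoblastoma protein, the product of RB1, which otherwise holds back E2F transcription factors and with them the genes of DNA synthesis. The inhibitor p18, from CDKN2C, binds CDK4 and CDK6 alone, while p27, from CDKN1B, binds cyclin-kinase complexes and is best known for holding CDK2. In T-lineage cells CCND3 and CDK6 are the best known of the D-type cyclins and their kinases, and CCND3 is needed for the expansion of early thymocytes. Much of the control of this pathway lies in protein turnover and phosphorylation, which RNA does not show.

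With 1 library per condition there is no replicate check, no test and no p-value, and every difference below compares libraries. Ratios are log2((value + 1)/(value + 1)). Genes are counted at 1.5-fold and at a smaller threshold, a difference of 0.32 on the log2 scale. Where 3 values are given in a row, they are normalized counts in the order control, oxamate and oxamate+lactate, and a single value in parentheses after them is the log2 ratio of oxamate against control. The sums over genes were between 8171633 and 8821115, and the depth in reads is unknown. Among 18 ERCC spike-in RNAs, which were added after RNA extraction and carry no spread between cultures, the SD of the log2 ratio was 0.13 for oxamate against control, 0.11 for oxamate+lactate against oxamate and 0.19 for oxamate+lactate against control. The median ratio of all 12292 genes over the floor was 0.08, -0.09 and -0.01 in the same order. Scaling the libraries to equal sums moved it by -0.10 in the first comparison and by 0.11 in the second. It turned the split of genes at least 1.5-fold different from 920 higher and 489 lower to 569 and 702 in the first, and from 31 and 111 to 78 and 42 in the second. Equal ERCC sums changed the split of oxamate+lactate against control from 367 and 377 to 507 and 266. In the second comparison equal ERCC sums gave 56 and 68. T-cell markers had values for 12 of 13 genes and summed to between 15060 and 17502, while sums were between 69 and 92 for the 3 of 5 B-cell markers with values, between 83 and 96 for 2 of 4 epithelial markers and between 165 and 202 for 1 of 3 fibroblast markers, and 0 of 5 myeloid and 0 of 3 erythroid markers had values. In such bulk RNA, fewer cells in a state and less RNA per cell cannot be told apart, and the phases of the cycle were not separated.

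The D-type cyclins parted in oxamate, with CCND3 higher and CCND2 lower than in control. CCND3, the D-type cyclin of thymocyte expansion, had 1651 normalized counts in the control, 2832 in the oxamate and 2400 in the oxamate+lactate library. Both treated libraries were above control, with the highest value in oxamate alone. Its log2 ratio for oxamate against control was 0.78 (1.71-fold), above 96.9% of all genes over the floor. CCND2, a D-type cyclin induced by growth signals in lymphocytes, had 698 in the control, 428 in the oxamate and 447 in the oxamate+lactate library. Here both treated libraries were below control and lay close to each other. The ratio of oxamate against control was -0.70 (1.63-fold lower), with 2.55% of all genes below it.

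The 2 cyclins also stood apart in oxamate+lactate when set against control. For oxamate+lactate against oxamate, CCND3 had a log2 ratio of -0.24 and CCND2 one of 0.06, both inside the range of the ERCC RNAs in that comparison (-0.39 to 0.10). Both lay outside the range of the 8 ERCC RNAs averaging at least 500 (-0.11 to 0.02). Against control the oxamate+lactate library kept a ratio of 0.54 for CCND3, above 96.3% of genes, and of -0.64 for CCND2, with 2.25% of genes below it. These last values share the control library with those of oxamate, so they do not repeat them independently. CCND2-AS1, an antisense transcript that overlaps CCND2, had values of 56, 33 and 35 in the order control, oxamate and oxamate+lactate, and was below the floor. AC008012.1 overlaps CCND2 on the same strand, and AL513008.1 overlaps CCND3 on the other strand. Neither had values here. Strand was not kept in these libraries, and where genes overlap their reads cannot be told apart.

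The balance of the 2 cyclins within a library does not depend on how the libraries were scaled. Per kilobase of the longest annotated transcript, CCND2 made up 13.5% of the CCND2 and CCND3 level in the control, 5.29% in the oxamate and 6.44% in the oxamate+lactate library. The ratio of CCND3 to CCND2 per kilobase was 6.40 in the control, 17.9 in the oxamate and 14.5 in the oxamate+lactate library. On the log2(value + 1) scale it was 2.79-fold larger in oxamate than in control. CCND1, the third D-type cyclin, had 16, 13 and 20 normalized counts and was below the floor.

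**Figure D1:**
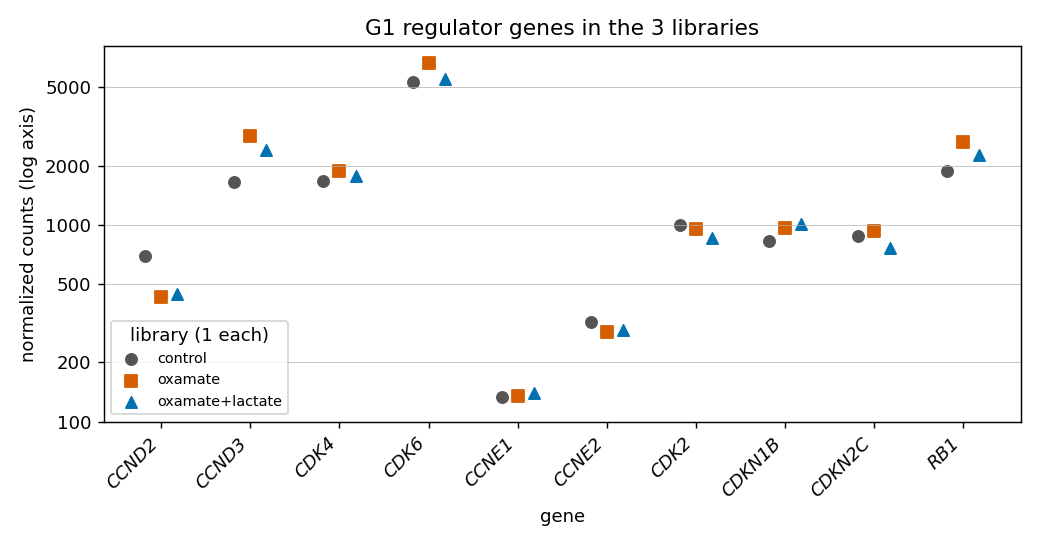
Normalized counts (vertical axis, log scale) of the 10 genes in the control, oxamate and oxamate+lactate libraries, 1 point per library. CCND3 is at 1651, 2832 and 2400 and CCND2 at 698, 428 and 447, while CCNE1 stays between 134 and 140.

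CDK6, the partner kinase best known in T-lineage cells, had 5308 normalized counts in the control, 6664 in the oxamate and 5523 in the oxamate+lactate library. The oxamate library stood above the other 2, which were close to each other. The ratio was 0.33 (1.26-fold) for oxamate against control and -0.27 for oxamate+lactate against oxamate. With equal sums the first of these was 0.23, below the smaller threshold. CDK4, the sister kinase, had 1673, 1879 and 1780, with ratios of 0.17 and -0.08. The second of these changed sign to 0.03 with equal sums. For oxamate against control the ratio of CDK4 was inside the range of the ERCC RNAs (-0.24 to 0.29) and that of CDK6 just outside it. The range of the 8 ERCC RNAs averaging at least 500 was -0.24 to 0.10, and both ratios were above it. CDK6 made up 36.2%, 38.8% and 35.7% of the CDK4 and CDK6 level per kilobase in control, oxamate and oxamate+lactate, a far smaller difference than in the D-type cyclins. TSPAN31 overlaps CDK4 on the other strand and had 1067, 1118 and 993 normalized counts. AC002454.1, an antisense gene, overlaps CDK6 and had 138, 134 and 111.

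The 250 bases before the annotated starts of the genes were searched for letters known from promoters of cell cycle genes. RefSeq sequences on GRCh38.p14 were searched for 7 of the 10 genes, CCND3, CDK4, CDK6, CCNE1, CDKN1B, CDKN2C and RB1, with 12 starts in all. Sequences of CCND2, CCNE2 and CDK2 were not searched. The start searched for RB1 lies inside the gene. GENCODE 29 places exons of the gene itself in the windows of CDK4 and of the second CDKN2C start shown here. It does so too in those of CCNE1, CDKN1B and RB1, in some of CCND3 and CDK6, and at a CDKN2C start not shown. The E-box CACGTG, a site bound by MYC with MAX and by other factors, was found in 3 of the 12 windows, those of CDK4 and 2 of CDKN2C, against 6.34% of 35116 windows of the same length. It is shown as the only motif searched that had a match. MYC, a known activator of CDK4, was itself 1.93-fold higher in oxamate than in control (2739 and 5299 normalized counts, with 3922 in oxamate+lactate). CDK4 held 3 matches, at 216, 196 and 101 bases before its start, and CDKN2C held 1 before each of 2 starts, at 220 and 69 bases. Capitals mark the E-box, which reads the same on both strands, in windows of 30 bases written 5′ to 3′ along the gene's strand.
CDK4, chr12:57752499-57752528, minus strand: gtCACGTGtgatagcaacagatCACGTGgc
CDK4, chr12:57752394-57752423, minus strand: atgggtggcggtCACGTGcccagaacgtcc
CDKN2C, chr1:50960513-50960542, plus strand: gattgtgcacctCACGTGgttagtcacaca
CDKN2C, chr1:50970164-50970193, plus strand: ttgctgaataatCACGTGtgaatcgagggg
Beside the 1.93-fold difference of MYC, CDK4 differed by 1.12-fold and CDKN2C by 1.06-fold between oxamate and control. A link of MYC to these genes was not tested. None of the 7 genes held an E2F site (TTTCGCGC, TTTGGCGC, TTTCCCGC or TTTGGCGG, in 2.83% of windows), a forkhead site (GTAAACA, 2.98%), a cyclic AMP response element (TGACGTCA, 1.65%) or the cell cycle homology region (TTTGAA, 13.3%), on either strand. This says only that these letters are not in these windows, and a match is no evidence of binding.

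CCNE1 and CCNE2, the E-type cyclins that take cells into S phase with CDK2, differed little. CCNE1 had 134 normalized counts in the control, 135 in the oxamate and 140 in the oxamate+lactate library, the narrowest range of the 10 genes. Its ratio for oxamate against control was 0.01 and became -0.09 with equal sums. CCNE2 had 321, 286 and 292, with both treated libraries below control and a ratio of -0.17 for oxamate against control. Its neighbour INTS8 overlaps it on the other strand and had 870, 688 and 622. CDK2 had 993, 952 and 859 normalized counts in control, oxamate and oxamate+lactate, lowest in oxamate+lactate, with a ratio of -0.21 for that library against control. PMEL overlaps CDK2 on the other strand and had 360, 304 and 297. An antisense gene also overlaps CCNE2 and another overlaps CDK2, both without values here. The share of CCNE1 in the CCNE1 and CCNE2 level per kilobase was 40.5%, 43.5% and 43.9%. The E-type branch therefore showed no ratio of oxamate against control outside the ERCC range.

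The inhibitors differed little between the libraries. CDKN1B, which encodes p27, had 830 normalized counts in the control, 959 in the oxamate and 1008 in the oxamate+lactate library, with control the lowest. CDKN2C, which encodes p18, had 873 in the control, 927 in the oxamate and 760 in the oxamate+lactate library, with oxamate+lactate the lowest. Against oxamate, the oxamate+lactate library had a ratio of 0.07 for CDKN1B and of -0.29 for CDKN2C, which was the lowest of the 10 genes in that comparison and short of the smaller threshold. Against control the ratios were 0.28 and -0.20. All 4 ratios lay inside the ranges of the ERCC RNAs, -0.39 to 0.10 against oxamate and -0.39 to 0.39 against control. For the 8 ERCC RNAs averaging at least 500, the ranges were -0.11 to 0.02 against oxamate and -0.31 to 0.002 against control. Both ratios against oxamate and the CDKN1B ratio against control lay outside these narrower ranges, while the CDKN2C ratio against control lay inside. Per kilobase, CDKN1B made up 51.0% of the CDKN1B and CDKN2C level in the control, 53.1% in the oxamate and 59.2% in the oxamate+lactate library. The CDKN2C ratio of oxamate against control, 0.09, became -0.015 with equal sums.

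RB1, the substrate of these kinases, was higher in oxamate. It had 1874 normalized counts in the control, 2619 in the oxamate and 2266 in the oxamate+lactate library, so that both treated libraries were above control and oxamate was the highest. The ratio of oxamate against control was 0.48 (1.40-fold), above 88.4% of genes, and that of oxamate+lactate against oxamate was -0.21. After CCND2 and CCND3 this was the largest difference among the 10 genes in the first comparison.

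**Figure D2:**
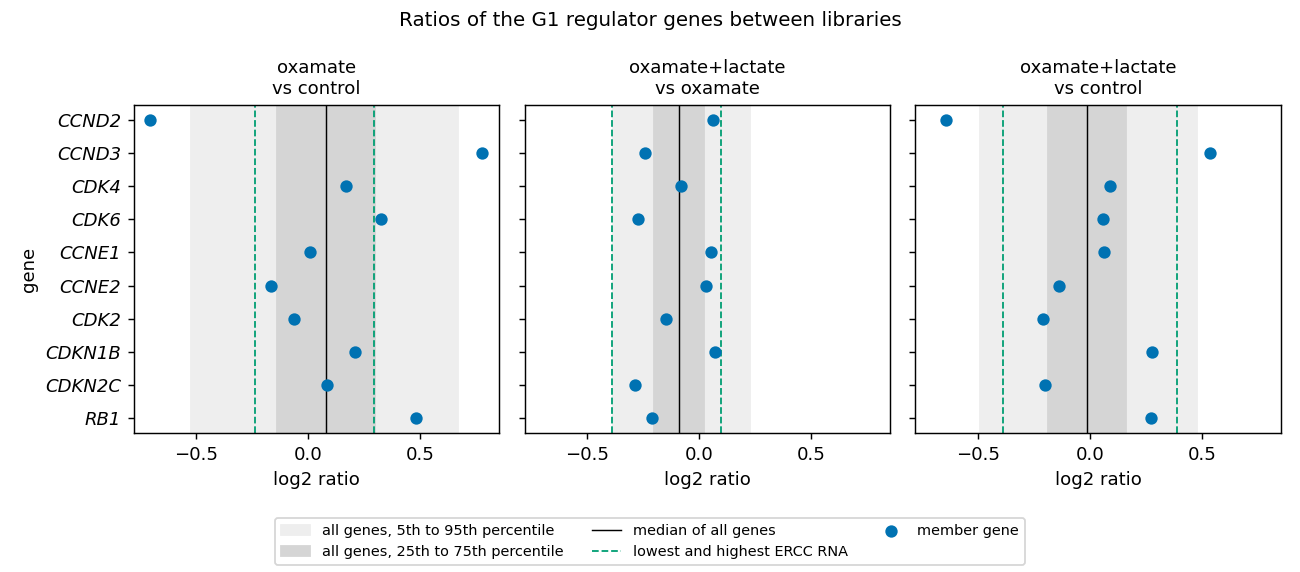
Log2 ratios (horizontal axis) of the 10 genes in the 3 comparisons, 1 panel each, over bands for the central ranges of all 12292 genes, with dashed lines at the lowest and highest of 18 ERCC RNAs. CCND2 at -0.70 and CCND3 at 0.78 lie outside the 5th to 95th percentile band of all genes for oxamate against control, and the 10 genes lie between -0.29 and 0.07 for oxamate+lactate against oxamate.

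Counted over the set, 1 of 10 genes was at least 1.5-fold higher in oxamate than in control (7.48% of all genes were) and 1 was at least 1.5-fold lower (3.98%). Past the smaller threshold of 0.32, 3 were higher, namely CCND3, RB1 and CDK6 (23.1% of all genes), and 1 was lower, CCND2 (11.8%). These shares are of the order of those over all genes. The median ratio of the 10 genes was 0.13, against 0.08 over all genes. For oxamate+lactate against oxamate, 0 of 10 genes reached the smaller threshold in either direction, where 2.39% of all genes were higher and 8.80% lower, and at 1.5-fold 0.252% of all genes were higher and 0.903% lower. The median was -0.11, against -0.09. For oxamate+lactate against control, CCND2 alone was at least 1.5-fold lower (3.07% of all genes) and none was 1.5-fold higher (2.99%), while past the smaller threshold CCND3 was higher (11.4%) and CCND2 lower (12.4%). The median was 0.06, against -0.01.

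In oxamate+lactate, 6 of the 10 genes had a value between those of the other libraries, where 53.5% of all genes lay: CCND2, CCND3, CDK4, CDK6, CCNE2 and RB1. CCNE1 and CDKN1B were above both other libraries, as were 12.4% of genes. CDK2 and CDKN2C were below both, as were 34.1% of genes. The share between the other libraries is near that over all genes. These positions hold for the values as deposited. With equal sums CDK4 was above both, with ratios to control of 0.07 in oxamate and 0.10 in oxamate+lactate. The shares over all genes were not computed for other scalings.

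Per kilobase, CDK4 was the highest of the 10 genes in control, at 806 normalized counts per kilobase, followed by CCND3 at 690, CDK6 at 457, RB1 at 391, CDK2 at 382, CDKN1B at 312 and CDKN2C at 301. CCND2 at 108, CCNE2 at 96.4 and CCNE1 at 65.6 were far lower. In oxamate CCND3, at 1183, passed CDK4, at 905, and CCND2, at 66.0, came last beside CCNE1 at 66.1. In oxamate+lactate CCND3 stayed first at 1003, with CDK4 at 857, and CDKN1B at 379 passed CDK2 at 331. With 1 library each, neighbours such as RB1 and CDK2 in control, or CCND2 and CCNE1 in oxamate, cannot be ordered. The per-kilobase level uses the longest annotated transcript, which need not be the one these cells make.

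**Figure D3:**
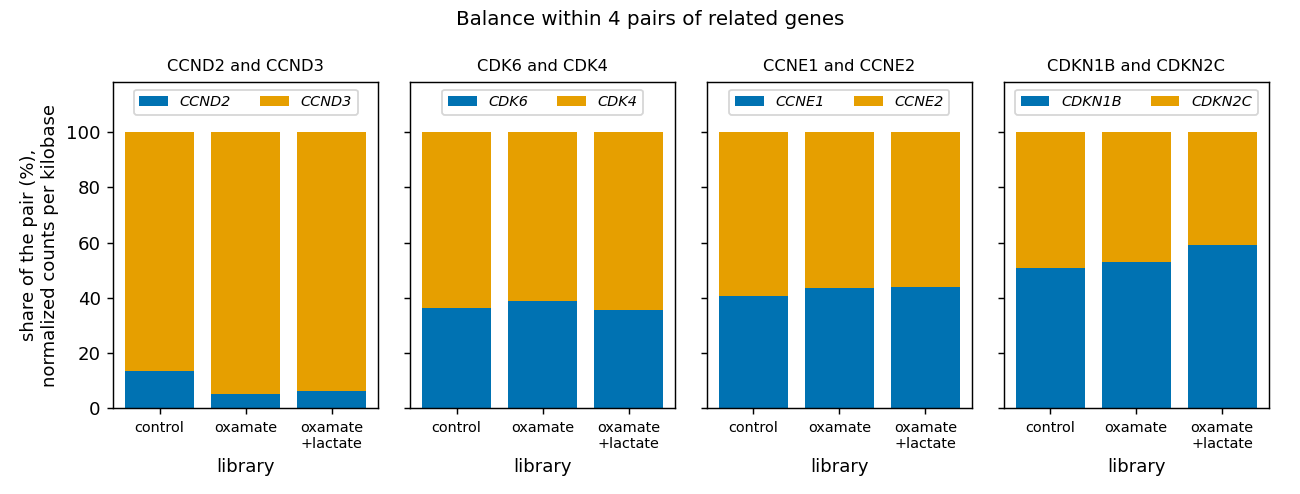
Share (%) of each gene in 4 pairs, from normalized counts per kilobase of the longest transcript, in the 3 libraries (1 bar per library). CCND2 takes 13.5% of its pair in the control, 5.29% in the oxamate and 6.44% in the oxamate+lactate library, and CDKN1B takes 51.0%, 53.1% and 59.2% of its pair.

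The 10 genes differ in base composition, and GC content moved with the ratios of oxamate against control: genes with the GC content of CCNE2 (36.9%) had a median ratio of -0.09 and those with that of CDKN2C (58.1%) one of 0.20. CCND3 has 56.2% GC in its longest transcript, where genes of like GC content had a median ratio of 0.18, and its ratio less that median was 0.60. CCND2 has 45.5% GC, and its ratio less the median of like genes was -0.75. For RB1, at 37.3% GC, the value was 0.54, and for CDK6, at 39.5% GC, it was 0.36. The 4 genes thus kept their directions, while CDK4 was at 0.005, and CDKN2C at -0.12 and CCNE1 at -0.14 changed sign.

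Around the pathway, E2F and DP factors and the other pocket proteins differed by small amounts. Over 12 genes the median ratio of oxamate against control was 0.23, with 9 above the median of all genes. Past the smaller threshold of 0.32, 3 were higher (23.1% of all genes) and 2 lower (11.8%), shares near those over all genes. TFDP2, a dimer partner of E2F proteins, had 3655 normalized counts in the control, 5228 in the oxamate and 5155 in the oxamate+lactate library (0.52 for oxamate against control). RBL1, which encodes the RB1 relative p107 and is itself an E2F target, had 560, 429 and 411 (-0.38), and the repressor E2F8 had 429, 330 and 312 (-0.38). RB1 and RBL1 thus stood on opposite sides of control in both treated libraries. An antisense gene overlaps RBL1 and another overlaps E2F8.

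Targets of E2F that mark entry into S phase lay near control in oxamate. For oxamate against control 17 of 24 such genes had ratios under the median of all genes and 7 over it, with a median of -0.03. None was 1.5-fold different in that comparison, where 7.48% of all genes were higher and 3.98% lower. Past the smaller threshold, 2 of the 24 were higher in oxamate than in control (23.1% of all genes) and 1 was lower (11.8%). The 2 higher ones, UNG and UHRF1, do not stand for the list, in which 14 ratios were below 0 and 10 above. UNG, a uracil DNA glycosylase, had 1203 in the control, 1522 in the oxamate and 1275 in the oxamate+lactate library (0.34). UHRF1, which guides DNA methylation after replication, had 2305, 2908 and 2536 (0.34). In oxamate+lactate against control, 20 of 24 were under the median of all genes, with a median of -0.16.

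Kinases and phosphatases that act on the G1 kinases had a median of 0.01 over 10 genes. DYRK1B, a kinase of quiescence that marks D-type cyclins for turnover, had 140 normalized counts in the control, 235 in the oxamate and 171 in the oxamate+lactate library (0.74). DYRK1B alone of the 10 was 1.5-fold different, where 7.48% of all genes were higher and 3.98% lower in oxamate than in control. DYRK1A, its relative, had 1196, 1617 and 1410 (0.43), and the phosphatase CDC25B had 1014, 1335 and 1026 (0.40). The 3 subunits of the kinase that activates CDKs, CDK7, CCNH and MNAT1, had negative ratios, of -0.31, -0.08 and -0.16, as had 4881 of all 12292 genes. Those of CCNH and MNAT1 lay inside the range of the 18 ERCC RNAs (-0.24 to 0.29).

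Subunits of ubiquitin ligases that turn over p27 and the D-type and E-type cyclins had a median of 0.21 over 11 genes past the floor, with 1 of them 1.5-fold higher (7.48% of all genes). FBXO31, a receptor for cyclin D1, had 255, 441 and 347 (0.79), and it overlaps MAP1LC3B. AMBRA1, a receptor for D-type cyclins, had 455, 618 and 477 (0.44), and CUL1, the scaffold of SCF ligases, had 688, 842 and 779 (0.29). SKP2, which takes p27 to its ligase, had 805, 829 and 714 (0.04), and FBXW7, which takes cyclin E, had 427, 373 and 335 (-0.19). FBXO4, another receptor for cyclin D1, had 115, 102 and 130 (-0.17), so the receptors for D-type cyclins lay on both sides of control.

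Of the 3 other CDK inhibitor genes past the floor, CDKN2D alone passed the smaller threshold of 0.32 in oxamate against control. Past it, 23.1% of all genes were higher and 11.8% lower. CDKN2D, encoding p19, had 201, 257 and 243 (0.35), CDKN1C, encoding p57, had 90, 78 and 73 (-0.20) and CDKN3, a phosphatase of CDKs, had 264, 260 and 273 (-0.02). CDKN1A, encoding p21, was below the floor at 17, 12 and 12. CDKN2A and CDKN2B were not analysed here. None of the inhibitors with values was 1.5-fold different among those past the floor. In oxamate against control, 7.48% of all genes were 1.5-fold higher and 3.98% lower.

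Transcription regulators known to act on these genes stood highest of the related lists. Of 13 past the floor, 5 were at least 1.5-fold higher in oxamate (7.48% of all genes) and 0 lower (3.98%), with a median of 0.38 against 0.08 over all genes. KLF2, a factor of T-cell quiescence, had 446, 1922 and 1223 (2.11). NOTCH1, an activator of CCND3 in T-lineage cells, had 1352, 2327 and 1716 (0.78), BCL6, a repressor of CCND2, had 41, 74 and 51 (0.84), and FOXO4, of the forkhead family that activates CDKN1B, had 163, 251 and 208 (0.62). MYC, with the values above, was the fifth. Several of these were known from earlier results of these data to be higher, so the count is no independent evidence. It also includes BCL6, which passed the floor narrowly, with a control value of 41 under that floor and its highest value in oxamate. FOXO4 passed 1.5-fold narrowly, at 1.54-fold. The count was not taken for other scalings. With equal sums the median of the list was 0.28, against -0.02 over all genes. STAT5B, which acts on CCND2, had 940, 1067 and 1070 (0.18), and MEN1, which encodes menin, known for keeping up CDKN1B and CDKN2C, had 975, 1386 and 1156 (0.51).

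**Figure D4:**
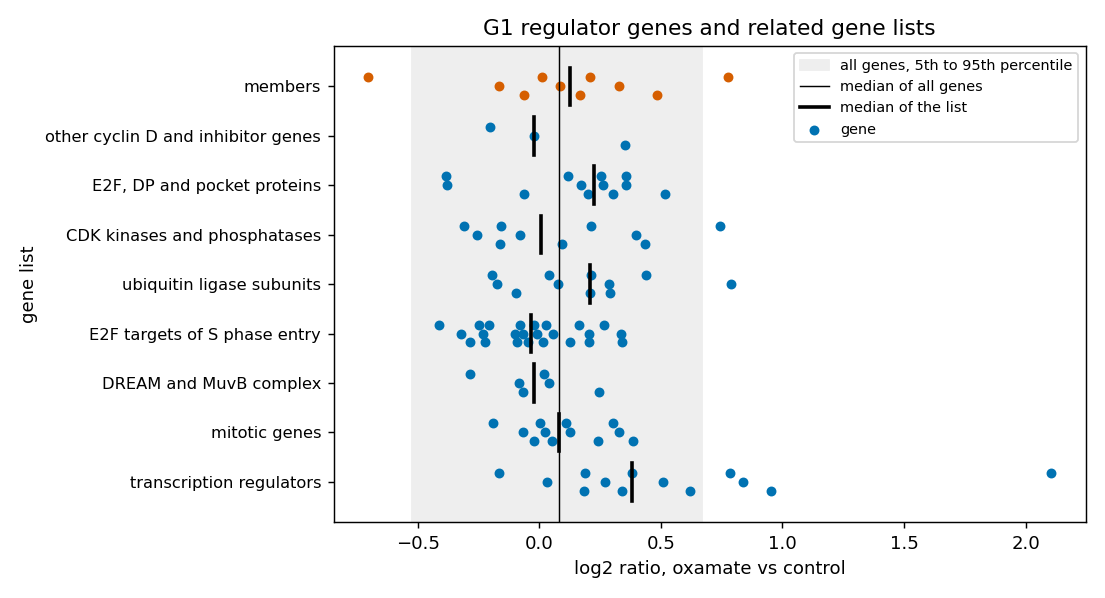
Log2 ratios of oxamate against control (horizontal axis) for the 10 genes (orange) and for 8 related gene lists (blue), 1 point per gene over the floor, with thick bars at list medians and a thin line at the median of all genes. The transcription regulators have a median of 0.38 and reach 2.11 with KLF2, and the targets of E2F have a median of -0.03.

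Mitotic and proliferation genes, which follow G1 exit, had a median of 0.08 over 12 genes, equal to that of all genes. MKI67, the proliferation marker Ki-67, had 6616, 8650 and 6905 normalized counts in control, oxamate and oxamate+lactate (0.39 for oxamate against control). CCNB1, cyclin B1, had 1285, 1614 and 1462 (0.33), and FOXM1, a factor of G2 and mitotic genes, had 1542, 1903 and 1631 (0.30) and overlaps ITFG2. LIN9, LIN52, LIN54 and RBBP4, of the MuvB core, taken with MYBL1 and MYBL2 had a median of -0.02 over these 6 genes. MuvB is part of the DREAM complex, which represses cell cycle genes in quiescence. The E2F, DP and pocket proteins of DREAM were counted in their own list above, so this median does not describe the whole complex. None of the 6 was past the smaller threshold in oxamate against control, where 23.1% of all genes were higher and 11.8% lower. MYBL2, a partner of MuvB in cycling cells that was also counted among the targets of E2F, had 3521, 2889 and 2578 (-0.29). LIN54 had 397, 471 and 414 (0.25) and MYBL1 had 178, 168 and 178 (-0.08).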

How the data were processed

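The authors deposited 1 table of normalized counts with 1 column per library. Its values are whole numbers, and they were treated as a score that the authors made by normalizing read counts and rounding, not as raw counts, so no count model was fitted. FastQC 0.11.9, STAR 2.7.1a, HTSeq 0.11.2 and hg19 are named, with no role or order, in the submitters' processing notes. For annotation and normalization, no tool or setting is named (not given in the sources used here). Polyadenylated RNA was taken from equal numbers of cells, ERCC RNA was added after extraction, and the library kit was one without strand marking, as the labels' protocols give it. Nothing says how many cultures stand behind a library.

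Log2 ratios (pseudocount 1) were computed with Python 3.11.15 and pandas 2.3.3 for genes with a mean of at least 50, and the computation was tested on simulated data. Members and lists were chosen with earlier results of these data known. Genes named from a list were those 1.5-fold different in any comparison or, where fewer than 3, the 3 with the largest ratios of oxamate against control. CDK7, CCNH, MNAT1, SKP2, FBXW7, FBXO4, STAT5B, MEN1, CCND1 and CDKN1A were named after their values were seen. Lengths, GC content and overlaps came from GENCODE 29 on GRCh38, a build other than that of the values. Genes of like GC content shared 1 of 20 bins. One gene that the naming rule picks among the targets of E2F is not reported here.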

Additional observations from a re-analysis of the deposited data

How the results depend on the processing

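Alternatives were pseudocounts of 10 and 0.1, floors of 200 and 10, scaling to equal sums, to equal ERCC sums or to the median ratio of all genes, and, chosen after seeing the data, ratios relative to genes of like GC content. CCND2 lay between -0.81 and -0.69 and CCND3 between 0.60 and 0.78 for oxamate against control in all of them, RB1 between 0.38 and 0.54 and CDK6 between 0.23 and 0.36. With equal ERCC sums, oxamate+lactate against control had 1 gene at least 1.5-fold higher (CCND3, 0.61), 0 lower (CCND2, -0.57) and 3 higher past the smaller threshold. Of all 12292 genes, 507 were then 1.5-fold higher and 266 lower, and 1948 were higher past the smaller threshold, against 1399 as deposited. Relative to genes of like GC content, 2 of the 10 were higher past that threshold in the same comparison, with no count over all genes at hand. The median of the 10 genes for oxamate against control was then -0.035. Of the lists in that setting, the ubiquitin ligase subunits were at 0.072 for oxamate against control, and for oxamate+lactate against oxamate the other cyclin and inhibitor genes were at 0.054, the kinases and phosphatases at 0.016 and the transcription regulators at -0.14. The other cyclin and inhibitor genes were at 0.17 with a floor of 200 and at -0.20 with a floor of 10 for oxamate against control, since other genes then pass. Per kilobase, which changes the shares by construction, CCND2 had 13.5%, 5.29% and 6.44% of its pair in control, oxamate and oxamate+lactate, CDK6 36.2%, 38.8% and 35.7%, CCNE1 40.5%, 43.5% and 43.9%, and CDKN1B 51.0%, 53.1% and 59.2%. For the 8 ERCC RNAs averaging at least 500 the SD was 0.104, 0.0453 and 0.103 in the 3 comparisons. The cause of the other changes was not tested. No paired analysis was possible because each condition has 1 library. The depth in reads is unknown, so the counting error of low genes such as CCNE1 cannot be given.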

Other observations

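Genes whose values followed the same course as those of the D-type cyclins were looked for among 4465 other genes with a mean of at least 500, by the Euclidean distance between the pairs of log2 ratios to control (oxamate, then oxamate+lactate). Nearest to CCND3 were CYTH1, a cytohesin exchange factor, at 1125, 1935 and 1640 normalized counts in control, oxamate and oxamate+lactate, ZDHHC8 at 480, 835 and 697, and the chromatin regulator ASXL1 at 1538, 2602 and 2220. Within a distance of 0.1 of CCND3 lay 35 of the 4465 genes. Nearest to CCND2 were OGT, the O-GlcNAc transferase, at 6205, 3796 and 4175, PPDPF at 1083, 661 and 653, and YARS, a tyrosyl-tRNA synthetase gene, at 3529, 2033 and 2288. Within 0.1 of CCND2 lay 3. Likeness over 3 libraries is a description and says nothing of shared control.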
